A study of Mus musculus with 12 samples.

Results

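Heat shock proteins, the DnaJ co-chaperones and the CCT ring were followed in pro-erythroblasts (Pro-E), the earliest erythroblasts that can be recognised by shape and surface markers, sorted from the bone marrow of β-thalassemic and WT mice. Genes were taken by symbol: names beginning with Hspa, Hspb, Hsph, Hspd, Hspe or Hsp90, the numbered Dnaja, Dnajb and Dnajc genes, the numbered Cct genes, Tcp1 (CCT subunit 1) and Hsf1. Of 83 such genes in a table of 24453 genes, 68 reached 1 FPKM (fragments per kilobase of exon, scaled to library size) in at least 3 of 12 libraries and were analysed. The name rule also takes Hspbp1, Hspbap1 and Hspb11, which encode HSP70-binding, HSPB1-associated and ciliary transport proteins rather than chaperones. The 12 libraries form 4 groups of 3. They are apoTf-treated β-thalassemic Pro-E, β-thalassemic Pro-E from mice given PBS, apoTf-treated WT Pro-E, and WT Pro-E from mice given PBS. β-thalassemic mice are Hbb th1/th1, with both copies of an adult β-globin gene deleted, and WT mice are C57BL6, a strain the labels give for every library while the study's methods speak of a mixed background. Human apoTf, transferrin without iron, was given intraperitoneally at 10 mg (400 mg/kg per day in the labels) for 20 days, and cells were collected 3 days after the last dose. The labels give an age of 5 months, which the study's methods do not match. Their text includes a phlebotomy in each library's protocol, and it is unclear if the mice behind the libraries were bled. Genotype tags contradict the titles in all 12 libraries, which were grouped here by title. Each library pooled 2 to 3 mice by the study's methods, and nothing in the labels says that the libraries of a group were prepared separately, so that p values measure the spread between these libraries.

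Molecular chaperones hold unfolded proteins and release them for folding. HSP70 proteins do so in a cycle driven by ATP, in which DnaJ proteins deliver the client and start ATP hydrolysis, and nucleotide exchange factors such as the HSP110 proteins and Hspbp1 release it. HSP90 acts later on kinases and receptors, HSP60 and HSP10 form the folding chamber of mitochondria, and the CCT ring of 8 different subunits folds actin and tubulin. Heat shock factor 1, encoded by Hsf1, induces many of these genes when unfolded protein accumulates. In human erythroblasts HSP70 is known to protect the transcription factor GATA1 from caspase-3, and free α-globin chains are known to bind HSP70 in the cytoplasm in β-thalassemia, which is why this family is of interest in a mouse short of β-globin chains.

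Grouped by title, Hbb-b1, the deleted gene, was listed at 97.5 to 204 FPKM in apoTf-treated β-thalassemic, 133 to 175 in β-thalassemic, 1096 to 3241 in apoTf-treated WT and 722 to 1788 in WT libraries, and where the reads left in β-thalassemic Pro-E came from was not tested. The summed level of 10 proerythroblast markers was 1238 to 2539 FPKM, with the lowest sum in WT replicate 1. The summed granulocyte and monocyte markers reached 11 FPKM in apoTf-treated β-thalassemic, 6.44 in β-thalassemic, 46.1 in apoTf-treated WT and 35.4 in WT libraries, and B cell, T cell and NK cell markers stayed at or under 0.356 FPKM in sum, with 3 of 5 T cell and NK cell markers at 0 in all libraries. Mast cell and basophil markers summed to at most 1.25 FPKM and those of stroma and endothelium to at most 0.808 FPKM. Markers of macrophages and megakaryocytes summed to 1.89 to 3.70 and 10.0 to 21.4 FPKM. The part of these other cells in the values below was not tested. In sorted bulk RNA, fewer cells of a type and less RNA per cell cannot be told apart. Read totals recovered from the steps of the FPKM values were 40140000 to 51610000 in 11 libraries and 33480000 in WT replicate 1. That library stood apart. Its median Spearman rho with the others was 0.867, against 0.982 to 0.99 in the other 11, and the ribosomal RNA precursor Rn45s was at 31177 FPKM in it, against 1609 to 6116 FPKM elsewhere (a rank correlation across genes, which are not independent replicates). Counts of members called in the tests and medians of the members are therefore given with and without it. Other values are with 12 libraries unless stated.

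The heat shock element, the DNA site that heat shock factor 1 binds, is shown here for the members that carry one close upstream, because it is the sequence link between Hsf1 and its target chaperones. It was searched as 3 alternating units GAA and TTC, each separated by 2 bases of any kind, on both strands of the 250 bases before RefSeq start sites (GRCm38.p6). Promoters were on hand for 55 of the 68 members. The element was found in 4 of 71 windows of the members (5.63%) and in 153 of 32851 windows of all genes (0.466%), and the 3 members with it were Hspd1, Hspe1 and Dnajb6. Windows of neighbouring or alternative starts can hold the same element, so these shares do not count separate sites. Hspd1 and Hspe1, the genes of the mitochondrial HSP60 and HSP10, have back-to-back RefSeq starts on chromosome 1. They lie at 55087932 on the minus strand and 55088148 on the plus strand, and the 215 bases between them hold the element that both windows cover. This Hspd1 start was taken from a window found to hold the element. In GENCODE M21 Hspd1 reaches 55088243 and Hspe1 begins at 55088132, so the annotated genes overlap and the element lies within Hspd1. The Dnajb6 element also lies within its annotated gene, which begins at 29735688. In the plus-strand sequences below, capitals mark the element, which runs to 4 units at Hspe1 and 3 at Dnajb6.
Hspe1, chr1:55088039-55088096: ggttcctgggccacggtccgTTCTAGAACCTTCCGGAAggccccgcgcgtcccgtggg
Dnajb6, chr5:29735832-29735884: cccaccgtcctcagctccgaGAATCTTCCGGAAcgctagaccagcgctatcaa
A match describes letters only, and no match in a window says nothing of the factor. The 6-letter TATA core, TATAAA, stood in 3 of the 71 windows (4.23%), against 7.59% of all windows.

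The textbook heat-induced genes Hspa1a and Hspa1b are near copies of each other on chromosome 17, and the start of their upstream windows is shown to mark how alike they are. The 250 upstream bases were identical at 247 positions (98.8%), and capitals mark the positions that differ in the stretch printed, both on the minus strand.
Hspa1a, chr17:34972337-34972406: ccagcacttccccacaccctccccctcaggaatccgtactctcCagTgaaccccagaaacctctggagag
Hspa1b, chr17:34959419-34959488: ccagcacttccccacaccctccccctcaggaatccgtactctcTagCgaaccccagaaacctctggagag
The likeness runs into the transcripts. Of all 50-base windows of the longest Hspa1b transcript, 62.3% occur in Hspa1a transcripts, and a read from such a window cannot be assigned to either gene. Among other members, the share of 50-base windows found in transcripts of another annotated gene was 58.5% for Hsp90aa1, 51.4% for Hspa8, 44.8% for Hspd1 and 35.8% for Dnajb6. It was 4.5% for Hsp90ab1 and 3.2% for Tcp1. The levels of the genes with high shares are uncertain in absolute terms.

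The most abundant member was Hsp90ab1, the constitutive cytosolic HSP90 on chromosome 17 (from 45567775 to 45573271, minus strand) of GRCm38, with 635, 512 and 479.7 FPKM in apoTf-treated β-thalassemic, 555, 579 and 568 in β-thalassemic, 645, 484 and 419 in apoTf-treated WT and 531, 471 and 573 FPKM in WT libraries. The 4 groups overlapped. Cct5, Cct2, Tcp1 and Hspa5 followed, with means over 12 libraries of 241, 189, 176 and 144 FPKM, then Cct6a, Cct4, Hspa8, Cct3 and Cct8 with 138, 137, 136, 133 and 132 FPKM. The means of the last 5 lay closer together than the spread of their libraries. At the other end, 15 of the 83 genes stayed below the filter. Hspb1, the best known small heat shock protein, reached at most 0.026 FPKM and was listed at 0 in 8 libraries, and 10 of the 15 stayed under 0.2 FPKM in every library. The others under the filter were Cct6b, the testis form of a CCT subunit, with Dnajb7, Hspa12b, Hspa1a and Hspb9. Hspa1a was at 0.573, 0.084 and 0.552 FPKM in apoTf-treated β-thalassemic, 0.378, 0.952 and 0.898 in β-thalassemic, 0.624, 0.062 and 0.638 in apoTf-treated WT and 0.127, 0.801 and 0.839 in WT libraries. By family, 8 of 11 HSP70, 3 of 3 HSP110, 3 of 3 HSP90, 2 of 2 HSP60 and HSP10, 2 of 8 Hspb, 4 of 4 DnaJ A, 10 of 13 DnaJ B, 25 of 26 DnaJ C and 8 of 10 Cct genes including Tcp1 passed.

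**Figure D1:**
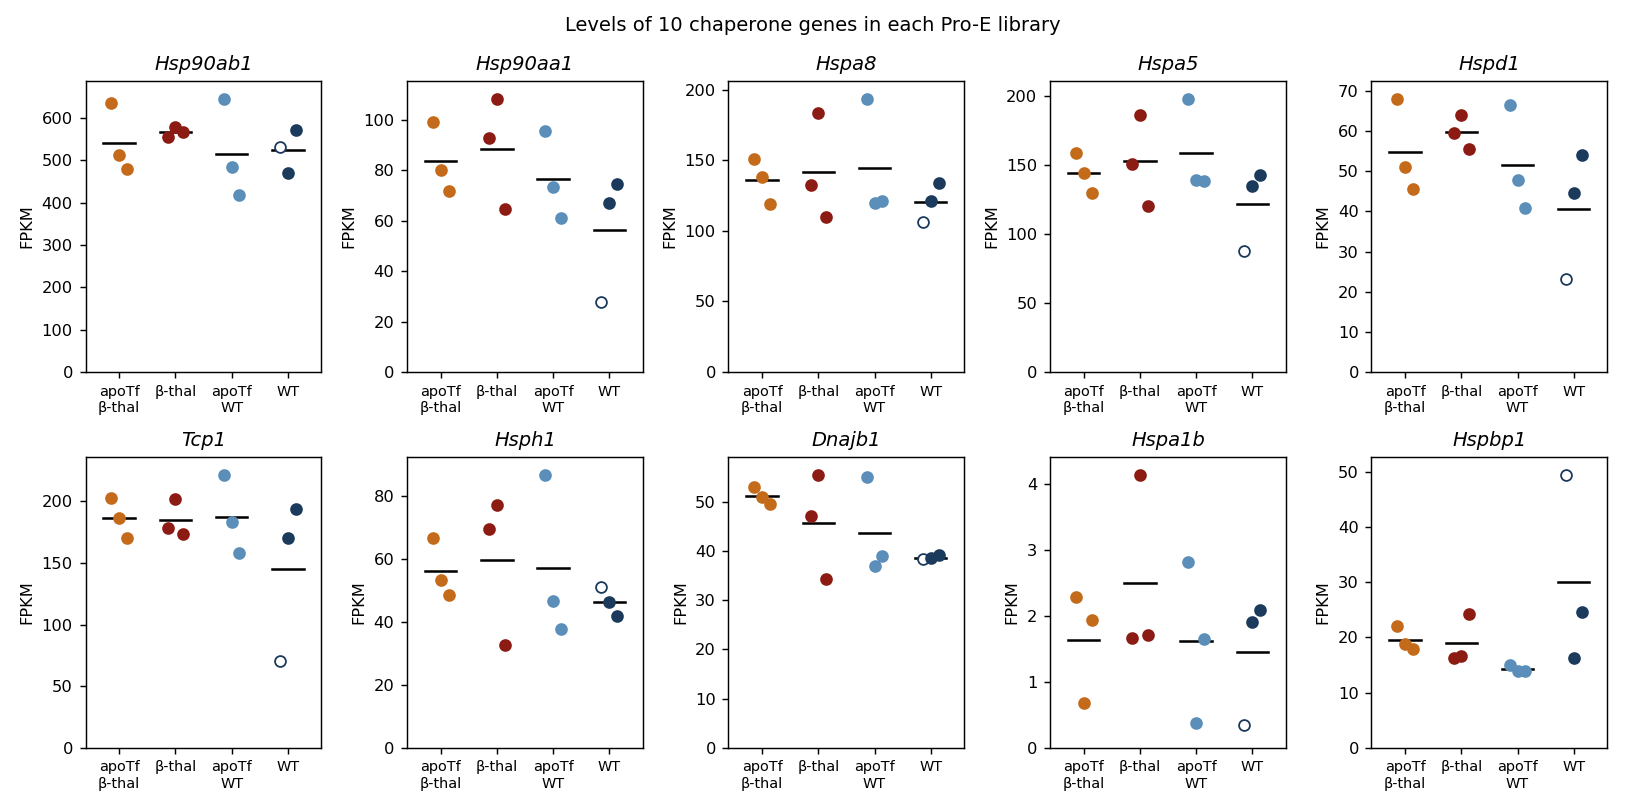
FPKM (vertical axes, from 0) of 10 chaperone genes in each of 12 Pro-E libraries, grouped as apoTf-treated β-thalassemic, β-thalassemic, apoTf-treated WT and WT; each point is a library, bars are group means of 3 libraries and the open point is WT replicate 1. The 4 groups overlap for most genes, and WT replicate 1 is the lowest of all libraries for Hsp90aa1, Hspa8, Hspa5, Hspd1, Tcp1 and Hspa1b and the highest, at 49.5 FPKM, for Hspbp1.

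For the HSP90, HSP70 and CCT families the summed level had its lowest group mean in WT Pro-E, and that mean was higher without WT replicate 1. The HSP90 genes summed to 709.6 ± 107 FPKM in apoTf-treated β-thalassemic, 745 ± 40.2 in β-thalassemic, 683 ± 149.7 in apoTf-treated WT and 654 ± 65.6 in WT Pro-E (mean ± SD, n = 3 libraries each), and to a mean of 673 FPKM in WT without replicate 1. The HSP70 genes summed to 438 ± 50.2 FPKM in apoTf-treated β-thalassemic, 457 ± 75.6 in β-thalassemic, 459.5 ± 104 in apoTf-treated WT and 376 ± 84.8 in WT Pro-E, and to 423 FPKM in WT without replicate 1. The CCT subunits summed to 1324 ± 156 FPKM in apoTf-treated β-thalassemic, 1343 ± 95.5 in β-thalassemic, 1306 ± 236 in apoTf-treated WT and 1106 ± 366 in WT Pro-E, and to 1306 FPKM in WT without replicate 1. These sums weigh abundant genes most, and no test was run on them.

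The 39 DnaJ genes that passed the filter encode proteins of many compartments. Dnajc9, a co-chaperone of histones, had the highest mean of them, 59.6 FPKM, with 63.3, 67.1 and 60.7 FPKM in apoTf-treated β-thalassemic, 59.1, 65.5 and 48.1 in β-thalassemic, 66.4, 65.6 and 63.2 in apoTf-treated WT and 32, 57.5 and 67 in WT libraries. Dnajc8, which is found with the spliceosome, followed with a mean of 51.2 FPKM over 12 libraries, and then Dnajb1 and Dnaja2, cytosolic partners of HSP70, with 44.8 and 38.5 FPKM. Of the ER proteins, Dnajb11 averaged 32.6 FPKM, the disulfide reductase Dnajc10 27 FPKM, Dnajc3 15.8 FPKM and Dnajb9 2.93 FPKM. In mitochondria, Dnaja3 averaged 31.5 FPKM and the import motor proteins Dnajc15 and Dnajc19 14.9 and 5.96 FPKM. Dnajc2, which sits on ribosomes, averaged 15.8 FPKM, Dnajc21, which acts in the maturation of the large ribosomal subunit, 8.1 FPKM, and Dnajc6, or auxilin, which uncoats clathrin vesicles, 11.2 FPKM. The lowest members were Dnajc28, Hspa1l, Hspa2 and Dnajc12, with means of 0.906, 1.08, 1.14 and 1.13 FPKM, close to the filter. Hspb6, a small heat shock protein, was at 3.24, 4.32 and 4.3 FPKM in apoTf-treated β-thalassemic, 3.03, 3.35 and 4.69 in β-thalassemic, 2.55, 3.85 and 3.79 in apoTf-treated WT and 4.49, 3.11 and 4.41 in WT libraries. As classes, the 4 DnaJ A, 10 DnaJ B and 25 DnaJ C genes had median log2 fold changes of 0.53, 0.22 and 0.20 for β-thalassemic over WT Pro-E, and of 0.07, −0.04 and −0.05 without WT replicate 1. After apoTf in β-thalassemic Pro-E these medians were −0.03, 0.17 and 0.0048.

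WT replicate 1 was low for most chaperone genes. Of the 68 members, 55 were lower in it than in both other WT libraries (80.9%, against 63.4% of all genes tested) and 8 were higher than in both. The median log2 difference of WT replicate 1 from the mean of the other WT libraries was −0.74 for the members and −0.41 for all genes tested. Hspbp1, the nucleotide exchange factor of HSP70, was the farthest above them, at 49.5, 16.2 and 24.6 FPKM in WT libraries, and Dnajb9, an ER-resident DnaJ protein that binds BiP, the farthest below, at 0.557, 3.29 and 3.73 FPKM. The difference followed the GC content of the longest annotated transcript of each gene. Across the members Pearson's r was 0.68 and Spearman's rho 0.67 (n = 68 genes in the same 3 libraries, a description across genes, which are not independent replicates), and across all genes with a known GC content they were 0.76 and 0.79. The members had a median GC content of 46.9%, against 49.3% for all genes tested. Hspbp1 had the highest GC content of the members, 59.9%.

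**Figure D2:**
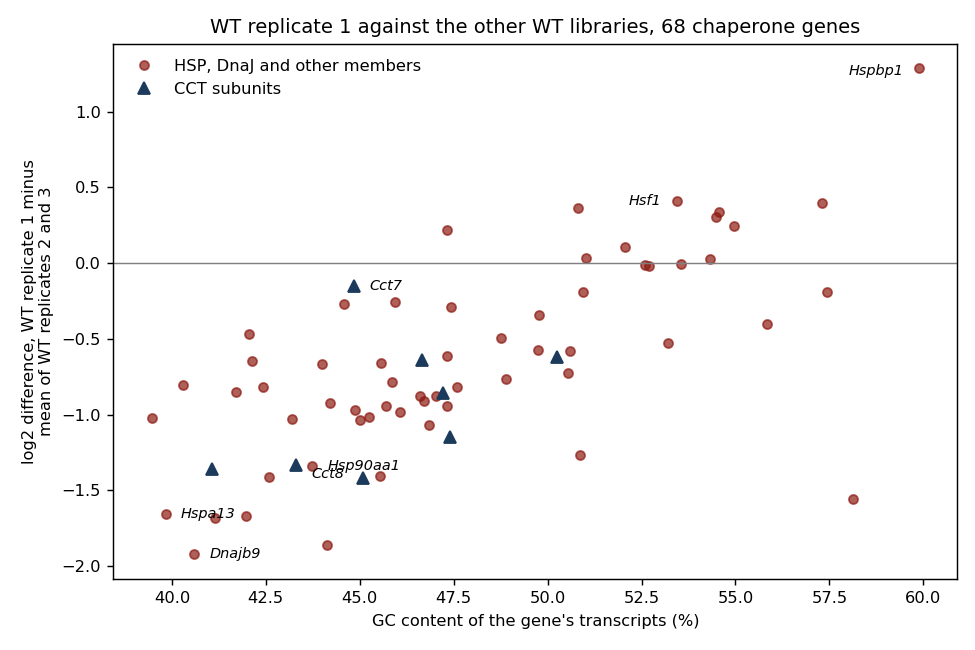
The log2 difference of WT replicate 1 from the mean of WT replicates 2 and 3 (vertical axis) against the GC content of the gene's longest annotated transcript in percent (horizontal axis), with a point for each of the 68 members and triangles for the 8 CCT subunits. Members of low GC content mostly lie low, down to −1.92 for Dnajb9, and Hspbp1 lies highest at 1.29. Among the exceptions are Hspa1b, at −1.56 with a GC content of 58.1%, and Hsph1, at 0.22 with 47.3%.

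The proportions of the CCT subunits varied little over 11 libraries and differed in WT replicate 1. The 8 subunits assemble in equal numbers, and their summed level was 1487, 1309 and 1177 FPKM in apoTf-treated β-thalassemic libraries, 1273, 1452 and 1305 in β-thalassemic, 1553, 1281 and 1083 in apoTf-treated WT and 705, 1190 and 1423 in WT libraries. Cct5 held 18.4 to 19.3% of that sum in the 11 libraries and 22.7% in WT replicate 1. Cct7 held 8.92 to 10.1% and 15.4%, and Tcp1 held 13.3 to 14.6% and 10.00%. Cct8 held 10.4 to 10.9% and 7.59%, and Cct4 held 10.4 to 11.3% and 7.63%. The share of Cct2 was 14.6 to 15.5% and 15%, so that it alone of these 6 did not leave the range of the other libraries. A ratio of the same kind, Hsp90aa1 over Hsp90ab1, the stress-induced over the constitutive cytosolic HSP90, was 0.114 to 0.187 in 11 libraries and 0.0521 in WT replicate 1.

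Between β-thalassemic and WT Pro-E no chaperone gene passed the test. With limma on log2(FPKM + 0.5) and Benjamini-Hochberg adjustment over 9650 genes, 0 of the 68 members had an adjusted p under 0.05, where 25 genes (0.259%) did. At an unadjusted p under 0.05 there were 2 members, Dnaja4 and Hspd1, both higher in β-thalassemic Pro-E, against 7.66% of all genes tested. Without WT replicate 1 the counts were again 0 (0.323% of 9607 genes) and 2 members, Dnajc28 and Hspb11, both lower (7.77% of genes), with no member in common. The median log2 fold change of the members was 0.24, with 52 of 68 above 0, against 0.08 and 59.9% above 0 for all genes. Without WT replicate 1 it was −0.00060, with 34 of 68 above 0, against −0.06 and 32% above 0 for all genes. The libraries of these groups did not overlap in 2 members, Hspd1 (higher) and Hspa2 (lower), against 6.92% of genes.

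In what follows, values in parentheses after the levels are log2 fold changes. They are given with 12 libraries first and then, for some genes only, without WT replicate 1. Hspd1 was at 59.7, 63.9 and 55.6 FPKM in β-thalassemic and 23.2, 44.5 and 54.1 FPKM in WT libraries, 0.63 on the log2 scale (SE 0.29, limma adjusted p = 0.528). All 3 β-thalassemic libraries were above all 3 WT libraries, but the nearest pair, 55.6 and 54.1 FPKM, all but touched, and without WT replicate 1 the log2 fold change was 0.28 (SE 0.20). Its neighbour Hspe1 was at 47.6, 55.5 and 38.5 FPKM in β-thalassemic and 15.2, 38.3 and 43.8 FPKM in WT libraries (0.65 with and 0.19 without WT replicate 1). Dnaja4, a cytosolic DnaJ protein, was at 16.3, 20.5 and 10.5 FPKM in β-thalassemic and 8.65, 11 and 11.2 FPKM in WT libraries, 0.56 on the log2 scale (SE 0.21, limma adjusted p = 0.528), and 0.44 (SE 0.21) without WT replicate 1. β-thalassemic replicate 3 lay inside the WT range. In the fit without WT replicate 1 this was the highest positive log2 fold change of the members, smaller in size than the −0.56 of Dnajc28 and the −0.50 of Hspb11.

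Hsp90aa1 had the largest log2 fold change with 12 libraries, 0.74 (SE 0.34, limma adjusted p = 0.528), from 92.7, 108 and 64.6 FPKM in β-thalassemic and 27.7, 66.9 and 74.6 FPKM in WT libraries. It was 0.29 (SE 0.22) without WT replicate 1, and β-thalassemic replicate 3 lay below both remaining WT libraries. Hsp90ab1 differed by 0.12 and Hsp90b1, the HSP90 of the ER, by 0.30, on 95.6, 99.3 and 74.1 FPKM in β-thalassemic and 58, 78.5 and 82.7 FPKM in WT libraries. Without WT replicate 1 the HSP90 genes lay between 0.13 and 0.29. Hspa4l, an HSP110 protein, was at 27.9, 31.4 and 17.8 FPKM in β-thalassemic and 10.0, 20.1 and 21.6 FPKM in WT libraries, a log2 fold change of 0.60 with and 0.26 without WT replicate 1. Its relative Hspa4 was at 48.4, 54.9 and 49.1 FPKM in β-thalassemic and 25.8, 44 and 52 FPKM in WT libraries (0.38 and 0.08). Both values were nearer 0 without that library.

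The levels of the main HSP70 genes overlapped between β-thalassemic and WT Pro-E. Hspa8, the constitutive cytosolic HSP70, was at 132, 183 and 109.7 FPKM in β-thalassemic and 107, 121 and 134 FPKM in WT libraries (0.21 with, 0.12 without WT replicate 1). Hspa5, the ER chaperone BiP, was at 151, 186 and 121 FPKM in β-thalassemic and 88.1, 135 and 143 FPKM in WT libraries (0.33 and 0.11). Hspa9, the mitochondrial HSP70 that also serves iron-sulfur cluster assembly, was at 101, 109 and 113 FPKM in β-thalassemic and 58.7, 91.8 and 112 FPKM in WT libraries (0.34 and 0.08). The inducible Hspa1b was low in every library, at 1.67, 4.14 and 1.7 FPKM in β-thalassemic and 0.348, 1.91 and 2.1 FPKM in WT libraries, and its 95% interval, −0.52 to 1.90 on the log2 scale, was the widest of the genes plotted. At such levels the added 0.5 FPKM pulls a log2 fold change toward 0. Hspa2, an HSP70 known for its role in sperm formation, was below WT in every β-thalassemic library, at 1.12, 1.02 and 1.08 FPKM in β-thalassemic and 1.38, 1.19 and 1.6 FPKM in WT libraries (−0.26, adjusted p = 0.528 from limma).

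All 8 CCT subunits had log2 fold changes above 0 with 12 libraries, between 0.19 for Cct7 and 0.51 for Cct8. Without WT replicate 1 they lay between −0.02 for Cct4 and 0.14 for Cct7. Tcp1, on chromosome 17 (from 12915701 to 12925067, plus strand), was at 179, 202 and 174 FPKM in β-thalassemic and 70.5, 169.9 and 194 FPKM in WT libraries, with a 95% interval of −0.30 to 0.35 on the log2 scale without WT replicate 1. Cct5 was at 238, 275 and 245 FPKM in β-thalassemic and 160.1, 219.6 and 275 FPKM in WT libraries. Cct2 was at 186, 215 and 203 FPKM in β-thalassemic and 106, 177 and 208 FPKM in WT libraries. In each of these 3 subunits, β-thalassemic replicate 2 was the highest of both groups and the other β-thalassemic libraries lay between WT replicates 2 and 3. Cct3, Cct4, Cct6a, Cct7 and Cct8 had log2 fold changes of 0.23, 0.45, 0.41, 0.19 and 0.51 with 12 libraries. Over 68 members, the 95% interval lay within a 2-fold difference in either direction for 50 members with 12 libraries and for 66 without WT replicate 1, and within 1.5-fold for 16 and 50.

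Of the DnaJ genes, Dnajb1, the cytosolic partner of inducible HSP70, was at 47.2, 55.5 and 34.4 FPKM in β-thalassemic and 38.3, 38.5 and 39.2 FPKM in WT libraries (0.21 with, 0.20 without WT replicate 1). The WT libraries lay within 1 FPKM of one another, and β-thalassemic replicate 3 lay below all of them. Dnaja1, another cytosolic partner of HSP70, was at 9.91, 11.6 and 6.07 FPKM in β-thalassemic and 2.22, 8.04 and 8.38 FPKM in WT libraries (0.67 and 0.11). Without WT replicate 1 the lowest p belonged to Dnajc28, at 0.719, 0.645 and 0.747 FPKM in β-thalassemic and 0.397, 1.1 and 1.46 FPKM in WT libraries, at −0.56 on the log2 scale (SE 0.16, limma adjusted p = 0.253). With WT replicate 1, which is below every β-thalassemic library, it was −0.23. Hspb11, which encodes a subunit of the intraflagellar transport machinery of cilia, was at 2.04, 1.7 and 1.61 FPKM in β-thalassemic and 1.07, 2.46 and 3.03 FPKM in WT libraries (−0.50 without WT replicate 1, adjusted p = 0.546 from limma). Hsf1 itself was at 11.6, 11.9 and 12.4 FPKM in β-thalassemic and 17.6, 11 and 15.7 FPKM in WT libraries (−0.27 and −0.13).

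**Figure D3:**
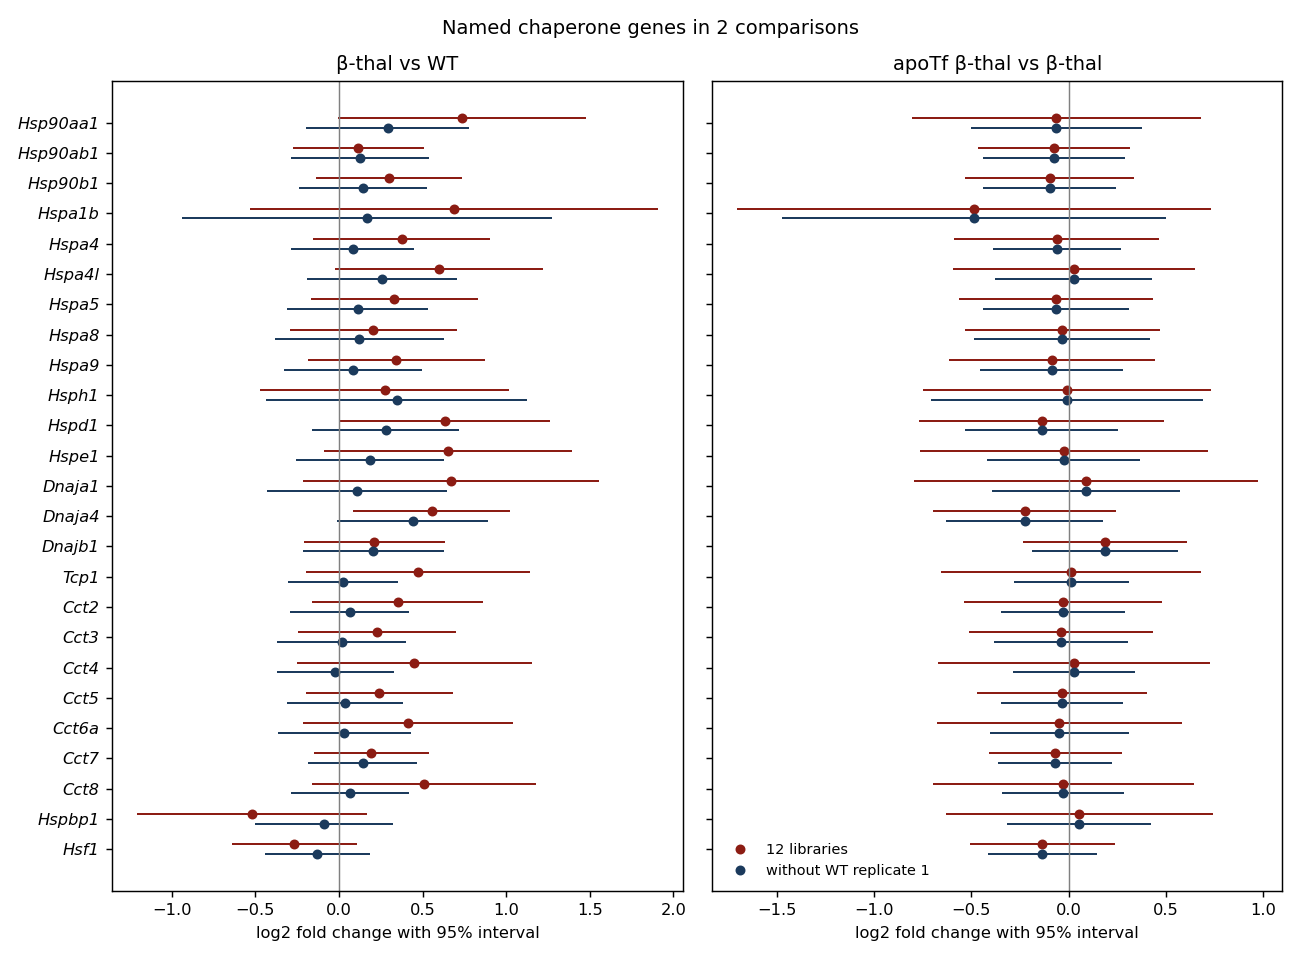
Log2 fold changes (horizontal axes) with 95% intervals of 25 named chaperone genes for β-thalassemic over WT Pro-E (left) and apoTf-treated relative to untreated β-thalassemic Pro-E (right), from limma with 12 libraries (red) and without WT replicate 1 (blue). On the left, Hsp90aa1 is at 0.74 in red and 0.29 in blue, and leaving the library out brings most genes toward 0 and narrows the intervals; on the right the red and blue points coincide.

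ApoTf treatment of β-thalassemic mice gave 0 members past the threshold, where 3 genes of 9650 (0.0311%) passed, and 0 members at an unadjusted p under 0.05 (1.43% of genes). WT replicate 1 enters this comparison only through the shared spread and the filter that sets which genes are tested. Without it the counts of members were again 0 and 0, against 0.0625% and 3.83% of 9607 genes. The median log2 fold change was −0.00052, with 34 members above and 34 below 0, against 0.03 for all genes tested. Log2 fold changes ran between −0.49 for Hspa1b and 0.31 for Dnajb3. The 95% interval lay within a 2-fold difference for 66 of 68 members and within 1.5-fold for 38 (67 and 61 without WT replicate 1).

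Hspa1b was at 2.29, 0.681 and 1.95 FPKM in apoTf-treated and 1.67, 4.14 and 1.7 FPKM in untreated β-thalassemic libraries, a difference that rests on the 4.14 FPKM of β-thalassemic replicate 2 and the 0.681 FPKM of apoTf-treated replicate 2. Dnajb3 was at 3.34, 4.32 and 4.46 FPKM in apoTf-treated and 2.92, 3.55 and 3.01 FPKM in untreated β-thalassemic libraries (0.31, SE 0.19). Their libraries overlapped. Dnajc4 was at 3.71, 4.55 and 4.5 FPKM in apoTf-treated and 3.17, 3.31 and 4.11 FPKM in untreated β-thalassemic libraries (0.24, SE 0.15). Dnajb12, a DnaJ protein of the ER membrane, was at 17.3, 18.4 and 16.9 FPKM in apoTf-treated and 14.5, 14.8 and 17.5 FPKM in untreated β-thalassemic libraries (0.17). Dnajc27, which carries a Rab-like GTPase domain beside its J domain, was at 2.77, 2.52 and 2.25 FPKM in apoTf-treated and 2.69, 2.93 and 3.19 FPKM in untreated β-thalassemic libraries (−0.19). These 4 were the members of lowest p, and none had an unadjusted p under 0.05. The libraries did not overlap in 2 members, Dnajc1, an ER DnaJ protein, and Dnajc28, both higher after apoTf, against 9.65% of genes. Dnajc1 was at 4.07, 4.55 and 4.28 FPKM in apoTf-treated and 3.99, 4.04 and 3.83 FPKM in untreated β-thalassemic libraries.

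For the abundant chaperones the same comparison gave values near 0. Hsph1, the HSP110 protein of the heat shock response, was at 66.6, 53.5 and 48.7 FPKM in apoTf-treated and 69.7, 77.2 and 32.7 FPKM in untreated β-thalassemic libraries (−0.01, 95% interval −0.74 to 0.73). Its interval was wide, and β-thalassemic replicate 3 lay far below the other β-thalassemic libraries. Hspa8 was at 151, 139 and 119 FPKM in apoTf-treated β-thalassemic libraries (−0.03), Hspa5 had a log2 fold change of −0.06 on 159, 144 and 129.9 FPKM, and Hspd1 of −0.14 on 67.9, 51.2 and 45.6 FPKM. The untreated values are given above. The CCT subunits lay between −0.07 for Cct7 and 0.03 for Cct4, and Tcp1 had a 95% interval of −0.28 to 0.30 without WT replicate 1. Hsf1 was at 12, 10.7 and 9.94 FPKM in apoTf-treated β-thalassemic libraries (−0.14).

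**Figure D4:**
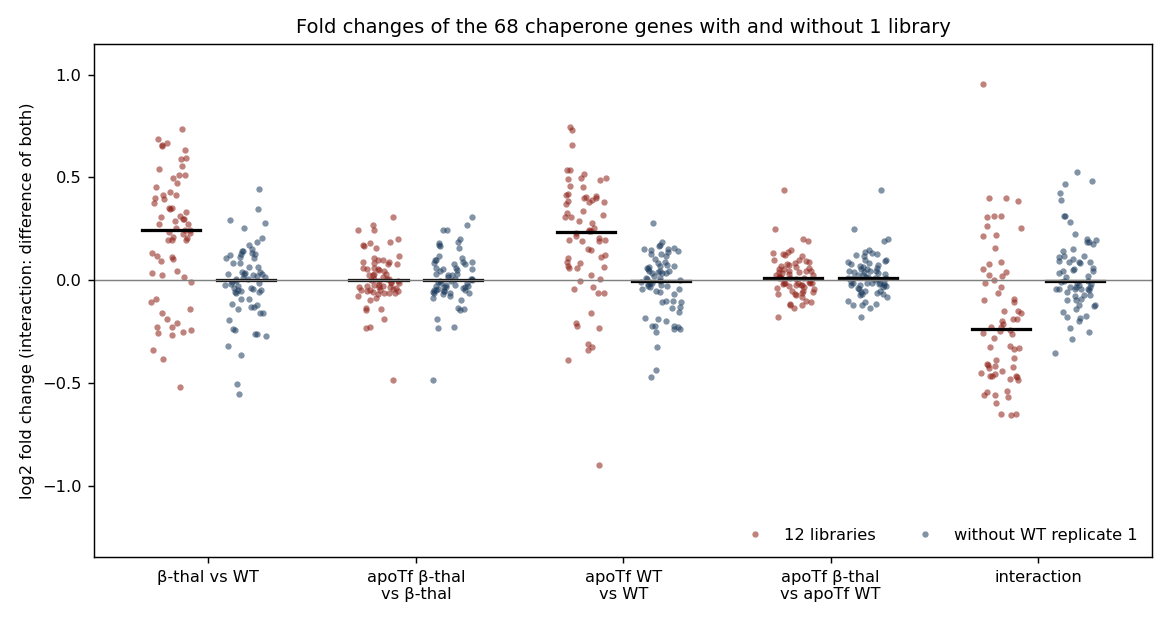
Log2 fold changes (vertical axis) of the 68 members in 5 comparisons, a point for each gene, with 12 libraries (red, left of each pair) and without WT replicate 1 (blue); black bars are medians, and the interaction is the apoTf effect in β-thalassemic minus that in WT Pro-E. The 3 comparisons that use WT libraries given PBS have medians of 0.24, 0.23 and −0.24 in red and near 0 in blue, and the other comparisons have medians near 0 in both.

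ApoTf treatment of WT mice gave 0 members past the threshold, and 0 genes of all those tested (0%) passed with limma. At an unadjusted p under 0.05 there were 2 members, Hspbp1 and Hsf1, both lower after apoTf, against 10.2% of genes. Without WT replicate 1 the counts were 0 (0% of genes) and 1, Hspbp1 (4.6% of genes). The median log2 fold change of the members was 0.23 with 12 libraries, with 54 above 0, and −0.0023 without WT replicate 1, with 33 above 0 (all genes 0.10 and −0.06). The comparison shares the WT libraries with that of β-thalassemic and WT Pro-E, so that its values are not separate from those above. Hspbp1 was at 15.1, 13.9 and 13.9 FPKM in apoTf-treated WT and 49.5, 16.2 and 24.6 FPKM in WT libraries, −0.90 on the log2 scale (SE 0.31, limma adjusted p = 0.41), and −0.47 (SE 0.19) without WT replicate 1. All apoTf-treated WT libraries were below all WT libraries. Hsf1 was at 12.1, 10.4 and 10.3 FPKM in apoTf-treated WT and 17.6, 11 and 15.7 FPKM in WT libraries (−0.39, SE 0.17, adjusted p = 0.41 from limma, and −0.25 without WT replicate 1). The groups overlapped, with apoTf-treated WT replicate 1 above WT replicate 2.

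Hspbp1 and Hsf1 passed the threshold in this comparison when WT replicate 2 was left out, at −1.26 (limma adjusted p = 0.0417) and −0.58 (limma adjusted p = 0.0460) on the log2 scale, in a fit that called 4.63% of all genes and 2.94% of the members. The WT group then consists of replicates 1 and 3. Dnajb4, a cytosolic DnaJ protein, was at 21.6, 20.9 and 18 FPKM in apoTf-treated WT and 5.25, 17.8 and 17.8 FPKM in WT libraries (0.73 with, 0.17 without WT replicate 1). Dnajc3, an ER co-chaperone that also inhibits the kinase PKR, was at 20.6, 17.1 and 15.7 FPKM in apoTf-treated WT and 7.51, 15.4 and 16.4 FPKM in WT libraries (0.50 and 0.15). Dnaja1 had the highest log2 fold change, 0.74, on 13, 8.11 and 7.84 FPKM in apoTf-treated WT libraries, and 0.18 without WT replicate 1. In all of these the 5.25, 7.51 and 2.22 FPKM of WT replicate 1 lay far below the other WT values. The libraries did not overlap in 5 members, Dnaja4, Dnajb4 and Dnajc19 (higher) and Dnajc30 and Hspbp1 (lower), against 10.9% of genes. Dnajc19, a part of the mitochondrial import motor, was at 6.47, 6.38 and 5.85 FPKM in apoTf-treated WT and 3, 5.71 and 5.54 FPKM in WT libraries.

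Between apoTf-treated β-thalassemic and apoTf-treated WT Pro-E, a comparison without WT replicate 1 among its libraries, 0 members passed, where 4 genes (0.0415%) did, and 0 had an unadjusted p under 0.05 (1.41% of genes). With WT replicate 1 left out of the filter and the shared spread these counts were 0 (0.0729% of genes) and 1, Hspbp1, which was higher in β-thalassemic Pro-E (3.6% of genes). The median log2 fold change was 0.01 for the members and for all genes. Hspbp1 was at 22.1, 18.8 and 17.9 FPKM in apoTf-treated β-thalassemic and 15.1, 13.9 and 13.9 FPKM in apoTf-treated WT libraries (0.44, SE 0.31, and SE 0.17 with an unadjusted p of 0.0229 in the limma fit without WT replicate 1). It was the sole member whose libraries did not overlap, against 11.6% of genes. Dnajb1 was at 53, 50.9 and 49.6 FPKM in apoTf-treated β-thalassemic and 55, 37 and 38.9 FPKM in apoTf-treated WT libraries (0.25), with one high apoTf-treated WT library. Dnajc4 and Dnajb12, next in order of p, had log2 fold changes of 0.19 and 0.15. Same-numbered libraries of these groups deviated together from their group means, with correlations of 0.25 to 0.51 over genes in the 3 pairs. With the replicate number as a block in a limma fit of the apoTf groups alone, chosen after seeing the data, 1 member passed, Hspbp1, which was higher in β-thalassemic Pro-E with the same log2 fold change of 0.44 (SE 0.05, limma adjusted p = 0.0237), where 2.21% of genes passed. The block was picked because these same values correlated, so its SE and p values are not those of a planned test. Hspbp1 was at 0.29 (limma adjusted p = 0.0453) with the GC trend of each library removed as well. At an unadjusted p under 0.05 the blocked fit gave 8 members, 6 higher and 2 lower, against 19.8% of genes. Without the libraries numbered 1, which leaves 2 pairs, Dnajb1 passed too, at 0.40 (limma adjusted p = 0.0422). The pair left out holds the high apoTf-treated WT library, and 2 pairs give little measure of the spread of a gene. With all 3 pairs Dnajb1 did not pass (limma adjusted p = 0.222). The counts of all genes called with a number left out are given in the last section. The CCT subunits lay between −0.01 and 0.10 and the HSP90 genes between −0.11 and 0.14.

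The interaction, the apoTf effect in β-thalassemic minus that in WT Pro-E, gave 0 members past the threshold (0% of genes, with or without WT replicate 1). At an unadjusted p under 0.05 there were 0 members with 12 libraries and 2 without WT replicate 1, Dnajc4 and Dnajc28, both with a positive interaction, against 4.9% of genes in either fit. Its median over the members was −0.24 with 12 libraries, with 49 of 68 below 0, and −0.0044 without WT replicate 1, with 35 below 0 (all genes −0.08 and 0.08). Hspbp1 had the lowest p with 12 libraries, with an interaction of 0.95 on the log2 scale (SE 0.44, adjusted p = 0.764 from limma) and 0.53 (SE 0.25) without WT replicate 1. With 12 libraries Dnajb12 and Dnajc4 had 0.40 and 0.40, and Dnaja4 had −0.47, or −0.35 without WT replicate 1. The interval of an interaction is wide at this size: it lay within a 2-fold difference for 38 members, and for 64 without WT replicate 1.

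The members that varied most between libraries of a group were chaperones of the heat shock response. Over the 11 libraries without WT replicate 1, the within-group SD of log2 values was 0.72 for Hspa1b, larger than in 99.3% of genes tested, 0.50 for Hsph1 (97.7%), 0.33 for Dnaja1 (94.4%), 0.31 for Hspa8 (93.0%) and 0.30 for Hsp90aa1 (92.4%). It was 0.05 for Dnajc1, the lowest of the members. The median was 0.18 for the members, 0.16 for all genes, 0.19 for the CCT subunits and 0.26 for 16 tested genes of a list of 18 textbook heat shock factor targets, of which 9 of the 16 are members. The 5 members of largest SD are all on this list. Of these 5, Hspa1b was low in every library. All but Hsph1 share 18.7 to 62.3% of their 50-base windows with other genes. The ranks were not matched for level. Within a group the targets were mostly high or low in the same libraries. ApoTf-treated WT replicate 1 was the highest of its group in 15 of 16 targets (65% of all genes tested), apoTf-treated β-thalassemic replicate 1 in 15 (60.9%) and β-thalassemic replicate 2 in 14 (39.2%), and β-thalassemic replicate 3 was the lowest of its group in 11 (32%). Over all 68 members these shares were 82.4%, 67.6%, 63.2% and 45.6%, in the same order.

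Hsph1, on chromosome 5 (from 149614287 to 149636376, minus strand), shows the pattern in single values: 66.6, 53.5 and 48.7 FPKM in apoTf-treated β-thalassemic, 69.7, 77.2 and 32.7 in β-thalassemic, 86.7, 46.6 and 37.8 in apoTf-treated WT and 51.2, 46.3 and 41.8 in WT libraries. The 86.7 FPKM of apoTf-treated WT replicate 1 and the 32.7 FPKM of β-thalassemic replicate 3 are the extremes of the 12 libraries, and neither group as a whole stands apart. The median log2 difference of the targets from the group mean was 0.26 in β-thalassemic replicate 2 and −0.28 in β-thalassemic replicate 3, where all genes tested had 0.02 and 0.04 and the CCT subunits 0.11 and −0.04. In apoTf-treated WT replicate 1 it was 0.35 for the targets, 0.27 for the CCT subunits and 0.10 for all genes. Of 10 tested genes that cell isolation is known to induce, 5 were highest and 4 lowest of their group in β-thalassemic replicate 2, 3 were highest and 6 lowest in β-thalassemic replicate 3, and 0 were highest and 5 lowest in apoTf-treated WT replicate 1. The part of handling in these values was not tested.

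**Figure D5:**
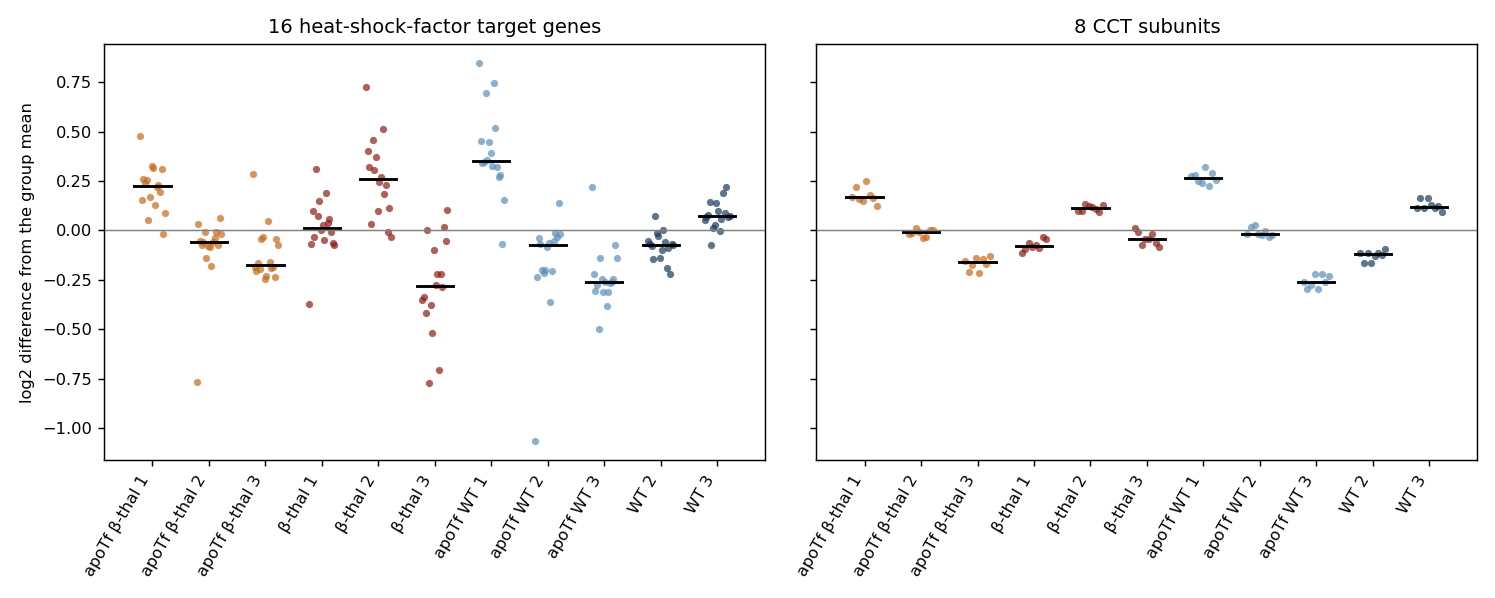
Log2 difference of each gene from the mean of its group (vertical axes) in 11 libraries, for 16 heat shock factor target genes (left) and 8 CCT subunits (right); points are genes and bars are medians, and the WT group holds replicates 2 and 3 only, which mirror each other by construction. The targets reach a median of 0.35 in apoTf-treated WT replicate 1 and −0.28 in β-thalassemic replicate 3, and the CCT subunits lie tightly together in every library.

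The wider pathway gave few calls. A list of 63 genes outside the name rule held mostly co-chaperones, exchange factors, prefoldins and mitochondrial or ER folding genes. It also held the regulators Hsf2, Hsbp1 and Ddit3. Of the 63, 62 were tested and 0 passed in any of the 5 comparisons with limma, with or without WT replicate 1. In the blocked fit of the apoTf groups, chosen after seeing the data, 2 of them, Fkbp8 and Nudc, were higher in β-thalassemic Pro-E (2.21% of all genes passed). At an unadjusted p under 0.05, 2 (3.23%) were lower in β-thalassemic Pro-E when set against WT, where 7.66% of all genes passed, 7 (11.3%) were lower in apoTf-treated WT Pro-E when set against untreated WT, where 10.2% did, and 2 had a positive interaction, where 4.9% did. The median log2 fold changes of the list in the β-thalassemic and the apoTf-treated WT comparisons with WT were 0.08 and 0.07 with 12 libraries and −0.03 and −0.03 without WT replicate 1. Fkbp8, a membrane-bound HSP90 partner of mitochondria, had the lowest p of the list in apoTf-treated relative to untreated WT Pro-E (−0.74), and Pih1d1, of the R2TP co-chaperone complex of HSP90, for β-thalassemic over WT Pro-E (−0.45). Without WT replicate 1 the log2 fold changes of Fkbp8 and Pih1d1 were −0.43 and −0.26. The 13 ER stress chaperones gave 0 calls in any comparison, with a median of 0.30 for β-thalassemic over WT Pro-E and 0.11 without WT replicate 1, and of −0.06 after apoTf in β-thalassemic Pro-E. The 16 heat shock factor targets had a β-thalassemic over WT median of 0.21 with and 0.17 without WT replicate 1, and of 0.00033 after apoTf in β-thalassemic Pro-E. Of 14 genes that cell isolation is known to induce, 10 were tested and 0 passed. At an unadjusted p under 0.05, 3 of the 10 were lower in apoTf-treated than in untreated β-thalassemic Pro-E, where 1.43% of all genes passed, with a median log2 fold change of −0.31 for the list. In apoTf-treated relative to untreated WT Pro-E 4 of the 10 were lower, where 10.2% of all genes passed, with a median of −0.64, or −0.35 without WT replicate 1. For β-thalassemic over WT Pro-E 2 were higher and 1 lower, where 7.66% of all genes passed. The part of isolation in the chaperone values of these comparisons was not tested. Ier3 had the lowest p of them in both of the comparisons that follow, with log2 fold changes of 0.93 for β-thalassemic over WT Pro-E and −0.97 after apoTf in β-thalassemic Pro-E.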

How the data were processed

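Polyadenylated RNA of sorted Pro-E was sequenced in 12 libraries. By the account in the study's methods, the authors mapped reads to mm10 with STAR, discarded those with more than 1 alignment, and counted the rest over exons on both strands with HOMER, so that overlapping genes on opposite strands cannot be told apart. The authors deposited FPKM values per library, which are used here as they stand. Deposited columns of the authors' own log2 fold changes and adjusted p-values were not used. Tool versions are not given in the sources used here. FPKM values are not counts, so groups were compared with limma 3.58.1 in R 4.3.3 (lmFit, contrasts.fit, eBayes with trend) on log2(FPKM + 0.5). The 9650 genes at 1 FPKM or more in 3 or more of 12 libraries were tested, in a single model of 4 group means. P values were two-sided and adjusted by Benjamini-Hochberg over these genes, with a threshold of 0.05. Read totals were recovered from the spacing of low FPKM values, 229 to 290 per library, among 1469 genes of known length. Of these values 94.0 to 96.7% came out as whole reads (tolerance 0.05 read). Each total was chosen for a high share, which is therefore not a separate check. With 33480000 to 51610000 reads per library, single reads weigh little in members of 1 FPKM or more. GC content, positions and 50-base windows came from GENCODE M21, and promoters from RefSeq (GRCm38.p6). The GC content was that of the longest transcript of each gene.

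Genes named are those past the threshold, the HSP90 genes, the main HSP70, HSP110, HSP60 and HSP10 genes, Hspb1, Dnaja1, Dnajb1, the CCT subunits, Hsf1, the 10 most abundant members, and up to 4 members of lowest p in each comparison. From the lists of co-chaperones, heat shock factor targets, ER chaperones, isolation genes and cell type markers, up to 3 genes of lowest p could be named. Other genes were named after their values were seen. The members and lists were chosen with earlier results of these data known. Alternatives were other pseudocounts, filters and scalings, other prior variances, only the groups compared, a replicate block, and each library left out. Same-numbered libraries were taken as paired where all 3 pairs of a comparison had deviations from the group means that correlated above 0.1. This held only for apoTf-treated β-thalassemic and apoTf-treated WT Pro-E (0.25 to 0.51); nothing in the labels says what a number marks. Fits without the GC trend of each library and with the block in the apoTf groups alone were added after seeing the data.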

Additional observations from a re-analysis of the deposited data

How the results depend on the processing

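The count of members past the threshold was 0 in all 5 comparisons under the alternatives run, other than in 2 comparisons. In apoTf-treated relative to untreated WT Pro-E, 2 members passed without WT replicate 2, so that leaving out each library gave 0 to 2 there. In apoTf-treated β-thalassemic relative to apoTf-treated WT Pro-E, 1 member, Hspbp1, passed with the replicate block in these groups alone, and 1 with that block and the GC trend removed. Leaving out each replicate number in that blocked fit gave 1 to 2 members, and leaving out single libraries without the block gave 0. All genes called in the blocked fit were 213, or 66 with the GC trend removed, and 77 to 301 with a number left out, against 4 in the fit as reported and 5 in these groups alone without the block. Over the other alternatives all genes called were 3 to 90 for β-thalassemic over WT Pro-E, 1 to 7 for apoTf-treated relative to untreated β-thalassemic, 0 to 446 for apoTf-treated relative to untreated WT, 3 to 7 for apoTf-treated β-thalassemic relative to apoTf-treated WT, and 0 to 1 for the interaction. The median log2 fold change of the members ranged, with each library left out in turn, from −0.00060 to 0.41 for β-thalassemic over WT Pro-E, from −0.0023 to 0.38 for apoTf-treated relative to untreated WT, and from −0.41 to −0.0044 for the interaction. The ends nearest 0 came without WT replicate 1 and the others without WT replicate 3. With the GC trend removed, an alternative chosen after seeing the data, these medians were 0.15, 0.09 and −0.11, and the log2 fold change of Hspbp1 after apoTf in WT Pro-E was −0.38, against −0.90 in the fit as reported; the cause was not tested. The filter of 5 FPKM left 50 members, with medians of 0.30, 0.31 and −0.32. In the other comparisons replicate numbers did not pair the libraries: correlations of deviations ran from −0.39 to 0.37, with at most 1 of 3 pairs over 0.1, and 6 of 12 libraries correlated best with their own number. With the replicate block over all 12 libraries, 0 members passed in each comparison, and 13 genes did for β-thalassemic over WT Pro-E, against 25 without it. The median SE of a member's log2 fold change was 0.21 with 12 libraries and 0.16 without WT replicate 1 in comparisons with WT, so a count of 0 does not show that levels were alike.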
